A study of Homo sapiens with 54 samples.

Results

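The wide H3K9me2 domains are the 8095 peaks of at least 2 kb, with a −log10 p of at least 3, in the H3K9me2 peak list of 1 DMSO library of RH4 cells. They were chosen by their width and −log10 p in that library, replicate 1, out of 1266233 peaks listed there and 236196 peaks at or over the −log10 p minimum on chromosomes 1 to 22 and X. RH4 is an established line of fusion-positive rhabdomyosarcoma, a muscle-lineage tumour driven by the PAX3-FOXO1 fusion protein. All cells were wild type in genotype as labelled, and each received P3FI-90 or the DMSO vehicle for 24 h. P3FI-90, written PFI-90 in the labels, is described by the study as an inhibitor of histone lysine demethylases, KDM3B above all. H3K9me2 was mapped by chromatin immunoprecipitation (ChIP) in 6 libraries, replicates 1, 3 and 5 of each treatment. The titles of P3FI-90 replicates 3 and 5 give a dose of 1 µM, and those of replicate 1 give none that can be read with certainty, while the study lists the same dose for all of them. Beside these stood H3K4me3 libraries (replicates 1, 3 and 4 of each treatment), single libraries per treatment for H3K27me3, HP1 and 3 forms of RNA polymerase II, chromatin accessibility (ATAC) after 4 h of 10 µM P3FI-63, an earlier compound of the study, or DMSO, and RNA libraries (replicates 1, 3 and 4 of each treatment).

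Dimethylation of histone H3 at lysine 9 is a mark of silent chromatin, laid down mainly by the methyltransferases EHMT1 and EHMT2 and removed by demethylases of the KDM3 and KDM4 families and by KDM1A. It spreads over broad stretches rather than sharp sites, and proteins of the HP1 family bind methylated lysine 9 through their chromodomains. H3K4me3, in contrast, marks active start sites, and H3K27me3 marks a separate, Polycomb form of repression. All 6 markers used to check the identity of the cells (MYOD1, MYOG, DES, PAX3, FOXO1 and CHRNA1) were at 1 TPM or more in DMSO, where TPM (transcripts scaled to library size and gene length) is the deposited unit of RNA level.

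The following reference sequences of GRCh37, the plus strand unless stated, show bases under 2 of the strongest domains and under 2 domains over start sites. Each is 240 bases, and every CG dinucleotide is in capitals because CpG density sets promoters and CpG islands apart from the rest of the genome. The first is the centre of the domain with the highest −log10 p, at chr2:136814905-136815144, in no annotated gene. The next, at chr3:86974756-86974995, lies in an intron of VGLL3 as annotated and is the centre of the strongest domain that all replicate 3 and 5 lists touched. The last 2 are the 240 bases before the start sites of CAV3 (chr3:8775246-8775485) and HMGCS1 (chr5:43313615-43313854, minus strand), both wholly inside a domain, and the CAV3 window also lies within the body of SSUH2, outside its exons.
Highest −log10 p: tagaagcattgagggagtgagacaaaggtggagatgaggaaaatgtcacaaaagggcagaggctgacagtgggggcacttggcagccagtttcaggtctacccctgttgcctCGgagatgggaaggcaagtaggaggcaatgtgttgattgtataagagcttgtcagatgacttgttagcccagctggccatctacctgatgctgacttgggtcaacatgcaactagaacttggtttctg
VGLL3 intron: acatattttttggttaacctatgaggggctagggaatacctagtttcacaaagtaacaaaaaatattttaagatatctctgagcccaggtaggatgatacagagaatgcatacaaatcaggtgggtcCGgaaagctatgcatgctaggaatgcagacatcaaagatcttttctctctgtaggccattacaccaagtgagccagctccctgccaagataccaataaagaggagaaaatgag
CAV3 start site: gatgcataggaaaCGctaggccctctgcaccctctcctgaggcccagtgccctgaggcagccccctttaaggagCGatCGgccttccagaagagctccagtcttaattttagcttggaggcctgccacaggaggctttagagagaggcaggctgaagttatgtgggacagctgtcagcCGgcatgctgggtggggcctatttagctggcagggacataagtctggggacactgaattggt
HMGCS1 start site: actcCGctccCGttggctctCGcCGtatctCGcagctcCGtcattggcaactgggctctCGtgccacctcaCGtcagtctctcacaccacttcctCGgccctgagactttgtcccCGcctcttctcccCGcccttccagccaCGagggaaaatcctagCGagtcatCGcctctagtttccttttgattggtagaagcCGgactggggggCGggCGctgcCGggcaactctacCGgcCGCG
The first 2 windows hold 1 CG dinucleotide each, and the windows before the CAV3 and HMGCS1 start sites hold 4 and 21. Among the central 240 bases of all 8095 domains, 77.9% held at least 1 CG, against 78.0% of 228100 narrower peaks and 76.8% of 28353 windows of that length set every 100 kb along the genome. Over their whole length the domains held 7.43 CG per kb at 42.5% G+C, the narrower peaks 7.59 CG per kb at 42.3% G+C, and the genome 9.87 CG per kb at 40.9% G+C. The ratio of observed to expected CG was 0.164 in domains, 0.170 in narrower peaks and 0.236 in the genome, so both kinds of peak were poorer in CpG than the genome at a slightly higher G+C content. Of the 94 genes with a domain over the start site, the median number of CG in the 240 bases before the start was 2, against 12 over all 22380 genes with a known strand, and 11.7% of the 94, against 56.8% of all, had 10 or more.

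The domains were many, modest in width and weak in enrichment. Their widths ran between 2000 and 16137 bp with a median of 2605 bp, 5414 of them (66.9%) were under 3 kb, 478 were 5 kb or wider and 19 were 10 kb or wider. Fold enrichment, the average over the peak that the peak caller gives, ran between 2.36 and 4.5 with a median of 2.88, against a median of 3.03 and a maximum of 111 in the 228101 narrower peaks. The −log10 p ran between 3.0 and 7.48 with a median of 3.40, and 185 domains reached 5. Together they covered 24.2 Mb, 0.853% of the 2836 Mb of sequenced bases on chromosomes 1 to 22 and X, and made up 3.43% of the peaks at that −log10 p and 18.1% of their bases. These values chose the domains and carry no test.

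The thresholds cut through a continuous range. The 5 narrowest domains were each 2000 bp wide, and the 5 widest peaks left out for width were 1998 or 1999 bp wide. The 5 domains with the lowest −log10 p had 3.0 to 3.0004, and the 5 wide peaks left out had 2.9995 to 2.9999. The list itself was deposited down to a −log10 p of 1.00. The lists of replicates 3 and 5 begin at 3.01 to 3.03, so a −log10 p of at least 3 was asked of every H3K9me2 list before overlaps were taken. This minimum does not make the lists alike. The replicate 1 lists were deposited down to 1.00, and the −log10 p is an average over each peak. With the minimum, P3FI-90 replicate 1 still held 258061 peaks, against 9290 to 26071 in the lists of replicates 3 and 5. Widths and cover in replicate 1 are therefore not on the same footing as in replicates 3 and 5.

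The widest domain, 16137 bp at chr2:136962317-136978453, had a −log10 p of 5.37 and lay 85.6 kb from CXCR4, the chemokine receptor gene. Peaks of P3FI-90 replicate 1 covered all of it, and those of P3FI-90 replicates 3 and 5 covered 10.9% and 3.35%. DMSO replicates 3 and 5 covered 56.2% and 6.70%. Another of the 5 widest, 13365 bp at chr2:137004053-137017417, lay on the same side, 127 kb from CXCR4. The other 3 of the 5 widest lay at chr12:65898932-65913356 under the non-coding MSRB3-AS1, at chr12:68623604-68637527 under the non-coding IFNG-AS1, and at chr1:59590631-59603613 under the non-coding FGGY-DT and LINC01358.

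Of the 5 domains with the highest −log10 p, the first (7.48, chr2:136813082-136816967) lay on the other side of CXCR4, 55.0 kb away, so 3 of these 10 leading domains flanked that gene, whose own body was 55.6% under a further domain. The others were at chr1:144987406-144990002 (7.34, in PDE4DIP, a stretch where the annotation also lists the pseudogene PDE4DIPP2), chr12:67986494-67990176 (7.28, 51.9 kb from DYRK2), chr4:190648823-190656445 (7.17, 206 kb from FRG1) and chr3:8537059-8541236 (6.98, in the non-coding LMCD1-AS1). In P3FI-90 replicate 1 they were covered over 78.0% to 100% of their length. In the replicate 3 and 5 lists they were covered over 0 to 70.7% of their length, and 3 of the 5 were touched in 3 of those 4 lists.

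Chromosome 20 held far more domains than its length. DNA copy number in these cells was not examined here, so its part in the spread over chromosomes and blocks was not tested. It carried 850 of the 8095 domains, 14.3 per Mb against 2.85 per Mb over all chromosomes, and domains covered 4.68% of its bases. Chromosome 3 held 1030 domains (5.29 per Mb), chromosome 18 held 353 (4.73 per Mb), chromosome 7 held 706 (4.54 per Mb) and chromosome 2 held 976 (4.10 per Mb). The X chromosome was lowest with 50 domains (0.331 per Mb), followed by chromosome 22 (23 domains, 0.659 per Mb) and the gene-dense chromosome 19 (38 domains, 0.681 per Mb). The 5 chromosomes with most domains, 3, 2, 20, 1 and 7, held 52.8% of all domains on 30.8% of the sequenced bases.

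Narrower peaks were spread more evenly. They ran between 45.1 per Mb on chromosome 19 and 105 per Mb on chromosome 18, with 99.3 per Mb on chromosome 20 and 80.4 per Mb over all chromosomes. On chromosome 20, 12.6% of all peaks at the −log10 p minimum were wide, against 5.23% on chromosome 3, the next highest, and 0.610% on X. The same rule applied to P3FI-90 replicate 1 gave 8895 wide peaks with a similar order, 15.4 per Mb on chromosome 20, 5.97 on chromosome 3 and 0.364 on X. In the short lists of replicates 3 and 5 the rule found only 52 and 109 wide peaks in P3FI-90, against 76 and 93 in DMSO. Of these, chromosome 20 had 5 and 2 in P3FI-90 and 15 and 0 in DMSO, and chromosome 3 had 12 and 78 in P3FI-90 and 8 and 69 in DMSO, so in replicate 5 of both treatments the wide peaks sat mostly on chromosome 3.

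**Figure D1:**
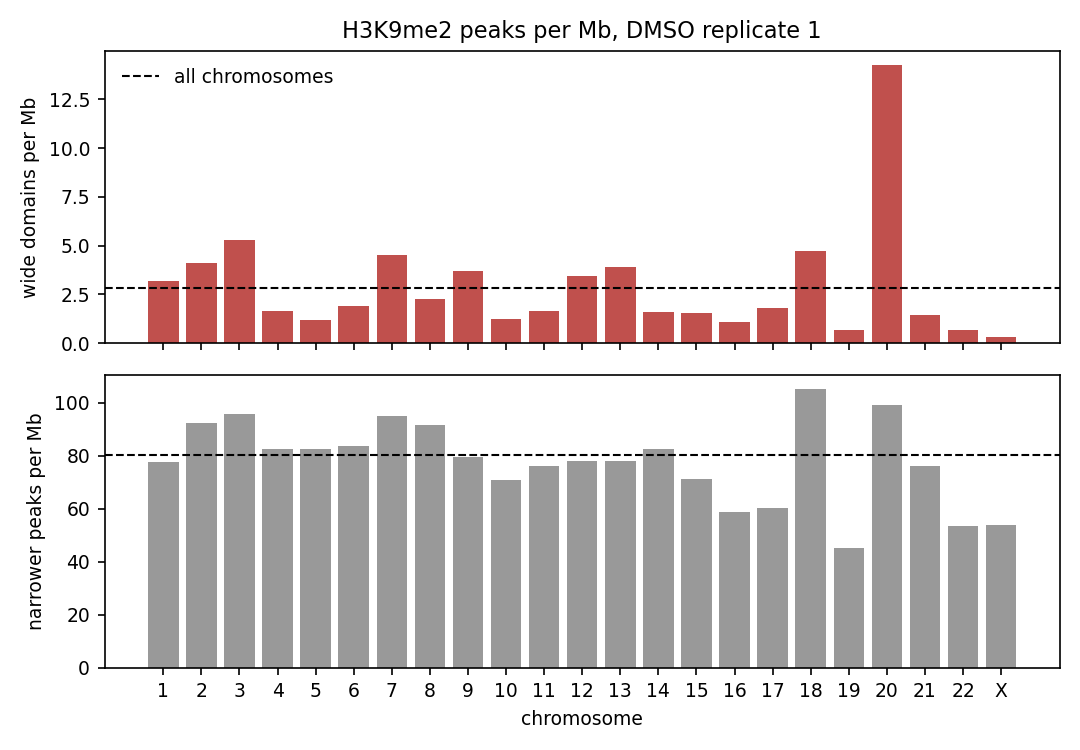
Wide domains per Mb (upper bars) and narrower peaks per Mb (lower bars) on each chromosome in the DMSO replicate 1 list, per Mb of sequenced bases, with dashed lines at the rate over all chromosomes. Chromosome 20 stands at 14.3 wide domains per Mb against 2.85 over all chromosomes, while its narrower peaks stand at 99.3 per Mb against 80.4.

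Within chromosomes the domains came in runs. The gap to the next domain had a median of 49.1 kb, with quartiles of 11.8 and 200.2 kb. Of 2856 windows of 1 Mb, 1313 held no domain and the 143 windows richest in domain bases held 3322 domains (41.0%). When domains up to 50 kb apart were joined, 75 blocks held 10 or more domains each. These blocks carried 1711 domains (21.1% of all) on 25.6 Mb (0.903% of the genome), and 2748 domains stood alone. The joining distance was set after the positions were seen, and joining over 20 kb or 100 kb gave 39 or 112 blocks with 7.04% or 33.6% of the domains. Chromosomes 20 and 3 had 15 blocks each, chromosomes 1 and 12 had 8 each, and no block of this kind was found on 11 of the chromosomes, chromosome 19 and X among them.

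The largest block, 146 domains at chr2:220851227-222791834, spanned 1941 kb with 26.1% of it under domains, and EPHA4, which encodes an ephrin receptor kinase, was the only protein-coding gene in it. Just beyond it on the same arm, a smaller block of 25 domains began at chr2:222844572 and reached PAX3, the 5′ partner of the fusion gene. The gap between these 2 blocks was just over the 50 kb joining distance, and joining over 100 kb makes them 1 block. The second block, 91 domains at chr3:7912909-9298976, held LMCD1, SSUH2, CAV3, OXTR, RAD18 and SRGAP3. The next, 82 domains at chr12:67684718-68688391, held CAND1, DYRK2, MDM1 and the cytokine genes IFNG, IL26 and IL22. On chromosome 20, 73 domains at chr20:58899178-59847778, reached the cadherin gene CDH4, and on chromosome 2, 64 domains at chr2:136737124-137396460, surrounded CXCR4 with 44.7% of its bases under domains. A further block, 61 domains at chr12:65727193-66461458, held MSRB3 and HMGA2. The 75 blocks touched 93 genes matched as protein-coding, 56 of them at 1 TPM or more in DMSO, and 22 blocks touched none. Genes without such a match are not in these counts, among them DARS (277 TPM in DMSO) in the CXCR4 block, so the first 2 counts are lower bounds.

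**Figure D2:**
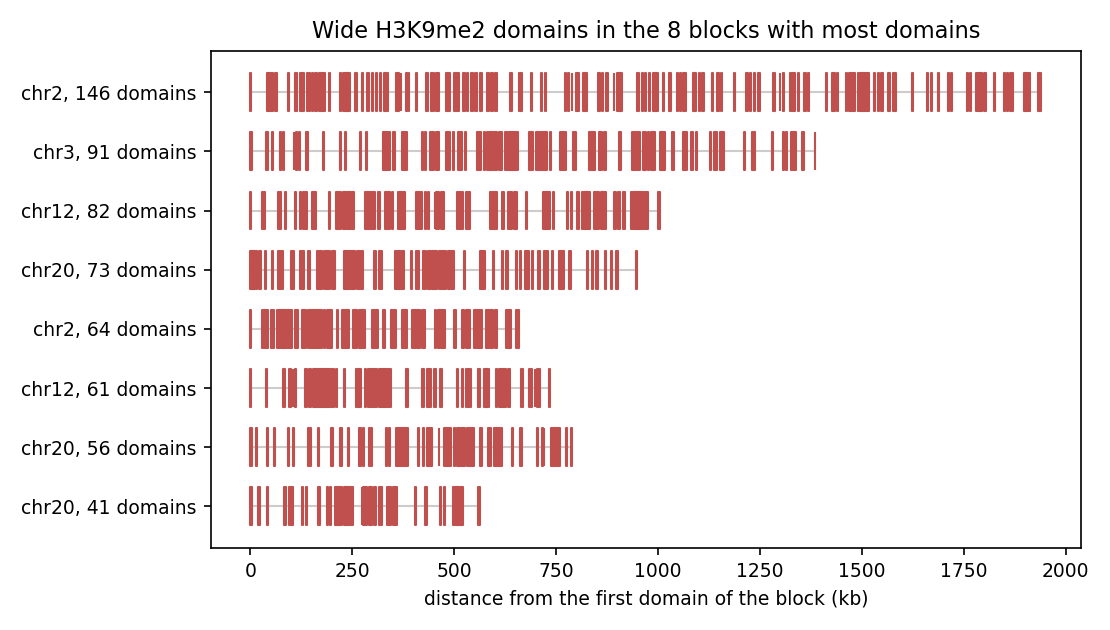
Each row is 1 of the 8 blocks with most domains, drawn as bars for its domains against the distance in kb from the first domain of the block. Domains fill 44.7% of the second block from chromosome 2, around CXCR4, and 26.1% of the longest one, with EPHA4.

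The first comparison asked whether the domain bases were called again in the 5 H3K9me2 libraries that had no part in choosing them. Peaks covered 39.2% of domain bases in P3FI-90 replicate 1, 4.78% in P3FI-90 replicate 3 and 1.5% in P3FI-90 replicate 5, and 8.75% in DMSO replicate 3 and 1.27% in DMSO replicate 5. The same lists covered 14.8%, 0.942%, 0.340%, 1.65% and 0.304% of the bases of the narrower peaks, in that order of libraries. They covered 5.27%, 0.242%, 0.174%, 0.437% and 0.166% of the genome. Domain bases were covered more than narrower-peak bases, in peaks of unlike width, in 5 of 5 libraries, by 7.48 percentage points on average (exact paired sign-flip test, two-sided p = 0.0625, n = 5, the smallest p that 5 libraries allow). As a multiple of the genome share, the domains stood at 7.43 in P3FI-90 replicate 1, 19.8 and 8.63 in P3FI-90 replicates 3 and 5, and 20.003 and 7.65 in DMSO replicates 3 and 5. Without P3FI-90 replicate 1 the mean difference between domains and narrower peaks was 3.27 percentage points. The peak lists carry no read totals, and the read depths that the study lists per antibody and treatment, without replicate numbers, were not used here.

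**Figure D3:**
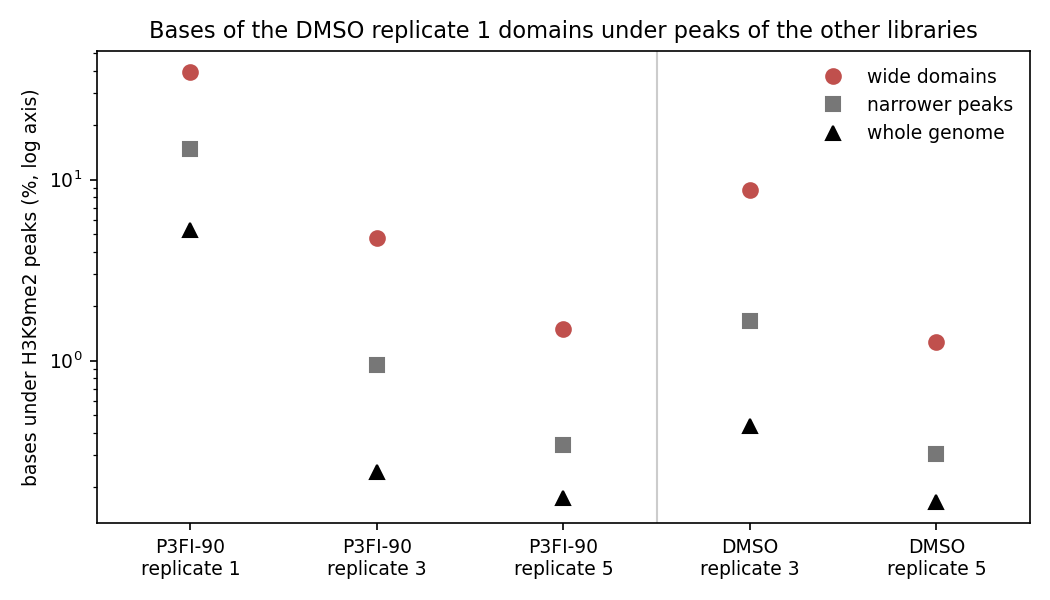
Percent of bases under H3K9me2 peaks (log axis) in each library that did not choose the domains, for the wide domains (circles), the narrower peaks (squares) and the whole genome (triangles). In each of the 5 libraries the domains lie above the narrower peaks and the narrower peaks above the genome, and the replicate 1 library of P3FI-90 lies above the other 4.

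Most domains were nevertheless not called again in the shorter lists. Of the 8095 domains, 4764 (58.9%) were touched by no peak of the 4 replicate 3 and 5 lists, 2021 by peaks of 1 list, 866 of 2, 277 of 3 and 167 (2.06%) of all 4. P3FI-90 replicates 3 and 5 touched 1609 and 546 domains, and DMSO replicates 3 and 5 touched 2578 and 519. A domain covered over at least 50% of its length was rarer, 1.07% and 0.296% of domains in P3FI-90 replicates 3 and 5 and 2.48% and 0.222% in DMSO replicates 3 and 5. The total length called differed in the same direction, 6.86 and 4.93 Mb in P3FI-90 replicates 3 and 5, against 12.4 and 4.72 Mb in DMSO replicates 3 and 5.

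Wider and stronger domains were called again more. In P3FI-90 replicate 3, peaks covered 3.07% of the bases of domains of 2 to 3 kb, 5.17% of 3 to 5 kb and 10.9% of 5 kb or more. In DMSO replicate 3 the same classes stood at 5.90%, 9.86% and 17.8%. By −log10 p, the 4712 domains under 3.5 were covered over 2.75% in P3FI-90 replicate 3 and 6.41% in DMSO replicate 3, and the 185 domains at 5 or more over 21.3% and 26.8%. The replicate 5 lists kept this order at lower levels, 0.655% and 11.6% in P3FI-90 and 0.542% and 8.79% in DMSO for the weakest and the strongest class.

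Domains in blocks were also called again more than domains standing alone. Block domains were covered over 61.5% in P3FI-90 replicate 1, against 24.4% for lone domains. In P3FI-90 replicates 3 and 5 the values were 10.4% and 4.2% for block domains and 1.63% and 0.250% for lone domains. In DMSO replicates 3 and 5 they were 15.6% and 3.67% for block domains and 4.25% and 0.221% for lone domains. Block domains were wider, with a median of 3012 bp against 2447 bp. Of the 167 domains touched in all 4 lists, 133 (79.6%) lay in blocks, and 43 were on chromosome 3, 36 on chromosome 12 and 29 on chromosome 2. The strongest of them, chr3:86970254-86979497, whose centre is printed above as the VGLL3 intron, was covered over 89.4% and 73.5% in P3FI-90 replicates 3 and 5, and over 50.9% and 77.7% in DMSO replicates 3 and 5.

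The question of the treatment was whether P3FI-90 changed the share of domain bases under H3K9me2 peaks. Between P3FI-90 and DMSO the shares overlapped, 4.78% and 1.5% in P3FI-90 against 8.75% and 1.27% in DMSO. Their means, 3.14% and 5.01%, differed by −1.87 percentage points (exact permutation test, two-sided p = 1.0, n = 2 each, smallest p possible 0.333). The difference had opposite signs in the 2 replicates, −3.97 percentage points in replicate 3 and 0.227 in replicate 5, and its sign rested on replicate 3. Divided by the genome share of each list, P3FI-90 exceeded DMSO by 0.371, so the sign turned with this scaling. The lists carry no spike-in scaling, so their cover does not measure the level of the mark. With spike-in scaling over triplicates, the study reports H3K9me2 peaks that were higher after P3FI-90 and none that were lower.

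In replicate 1, whose DMSO library chose the domains, no test is given. Peaks of P3FI-90 replicate 1 covered 406 domains (5.02%) completely, 2899 (35.8%) over at least 50% of their length and touched 5263 (65.0%), and 2832 domains (35.0%) were not touched. The median domain was covered over 25.7% of its length. When the list was used as deposited, down to a −log10 p of 1.00, the median was 71.3%. Of the 8895 wide peaks of P3FI-90 replicate 1, 2379 (26.7%) touched a domain, and the union of both wide sets came to 44.3 Mb.

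HP1 peaks covered less of the domain bases than H3K27me3 peaks did, but more as a multiple of the genome share of each list. In single libraries, HP1 peaks covered 11.2% of domain bases in P3FI-90 and 7.39% in DMSO, which is 12.2 and 15.5 times the genome share of the same lists. They touched 2555 domains (31.6%) in P3FI-90 and 1855 (22.9%) in DMSO. The HP1 list itself was longer in P3FI-90, with 26.1 Mb against 13.5 Mb in DMSO, and narrower H3K9me2 peaks were covered over 2.79% and 1.48%, 3.03 and 3.10 times the genome share. H3K27me3 covered 17.2% of domain bases in P3FI-90 and 15.6% in DMSO, 1.84 and 1.67 times its genome share, and narrower peaks stood at 1.56 times in both. The H3K27me3 lists covered 9.34% of the genome in both treatments, and the HP1 lists 0.921% in P3FI-90 and 0.476% in DMSO. A longer list has a lower largest possible multiple, so the multiples of the 2 marks are not on 1 scale. With 1 library per treatment, these values have no replicate check.

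Peaks of RNA polymerase II also lay on domains more often than on the genome at large. Total polymerase peaks covered 0.0808% of domain bases in P3FI-90 and 1.37% in DMSO, 32.6 and 20.6 times the genome share, and the lists held 520 and 6030 peaks. The serine 5 form, found early in transcription, stood at 5.46 and 5.70 times, and the serine 2 form, found in elongation, at 11.9 and 5.68 times. ATAC peaks covered 0.922% of domain bases after P3FI-63 and 0.694% in DMSO at 4 h, 3.54 and 5.29 times the genome share. Within the 75 blocks, the whole span was richer in the same lists, 9.66 and 14.2 times for HP1 in P3FI-90 and DMSO, 24.7 and 14.7 times for total polymerase, and 1.79 and 2.51 times for ATAC. H3K4me3 stood at 1.22 to 1.53 times in P3FI-90 and 1.38 to 1.74 times in DMSO, and H3K27me3 at 1.68 and 1.59 times. Across the 2856 windows of 1 Mb, domain bases per window had a Spearman rho of 0.681 and 0.690 with the HP1 lists of P3FI-90 and DMSO, 0.325 and 0.533 with total polymerase, and 0.103 and 0.0716 with H3K27me3. Windows share libraries, mappability and DNA copy number, and what part such shared features have in the overlap was not tested.

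H3K4me3 peaks, marks of active start sites, touched 9.73%, 2.06% and 10.6% of domains in P3FI-90 replicates 1, 3 and 4, against 11.03%, 2.41% and 11.8% in DMSO replicates 1, 3 and 4. The groups overlapped, and replicate 3 of both treatments was low. The means were 7.47% ± 4.71 in P3FI-90 and 8.42% ± 5.22 in DMSO (SD, n = 3 each), a difference of −0.947 percentage points (exact permutation test, two-sided p = 0.5, smallest p possible 0.1). Within replicate numbers the difference was negative 3 times, by −1.297, −0.346 and −1.20 percentage points in replicates 1, 3 and 4 (exact sign-flip test, two-sided p = 0.25, the smallest that 3 pairs allow).

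The domains lay outside protein-coding genes somewhat more than the genome does. For annotated genes of any kind the shares were close, 60.9% of domain bases, 62.4% of narrower-peak bases and 62.2% of the genome, and 63.5% of domains touched one. Protein-coding gene bodies held 40.6% of domain bases, against 44.6% of narrower-peak bases and 45.9% of the genome, and exons of these genes held 2.44%, 3.17% and 3.82%. Gene bodies of long non-coding RNAs held 24.1% of domain bases, against 21.2% of narrower-peak bases and 18.9% of the genome. Of the 26656 genes with a usable position in the RNA tables, 1717 (6.44%) held at least 1 bp of a domain, among them 1297 matched as protein-coding. Of the domains, 3572 (44.1%) touched 1 of these 26656 genes. Of these 1717 domain genes, 1065 held 1 domain, 167 held 5 or more and 42 held 10 or more.

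Domain genes were long, with a median length of 122 kb against 17.1 kb over all genes. The share of genes holding a domain was 0.933% among genes up to 5 kb, 9.82% from 50 to 100 kb, 38.0% from 200 to 500 kb and 42.2% above 500 kb. They were also expressed somewhat more often than genes at large. In DMSO, 54.0% ± 1.98 of domain genes were at 1 TPM or more, against 45.3% ± 1.297 of all genes (SD, n = 3 libraries), and in P3FI-90 the shares were 54.0% ± 1.84 and 44.8% ± 1.31. The median TPM of domain genes was 1.27 to 2.13 in the P3FI-90 libraries and 1.39 to 2.23 in the DMSO libraries, against 0.25 to 0.45 and 0.27 to 0.505 over all genes.

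This order depended on length. Between 5 and 20 kb, 30.9% of genes with a domain were at 1 TPM or more in the DMSO mean, against 47.9% of genes without one, and between 20 and 50 kb the shares were 43.0% and 58.4%. Above 100 kb it turned, to 65.1% against 61.5% from 100 to 200 kb, 61.4% against 54.9% from 200 to 500 kb and 57.0% against 32.4% above 500 kb. The 94 genes with a domain over the start site were low, with 33.7% ± 2.68 at 1 TPM or more in DMSO, against 50.1% ± 1.29 of all genes with a known strand. Likewise, of the 347 genes with at least 10% of the body under domains, 37.5% ± 1.52 were at 1 TPM or more.

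**Figure D4:**
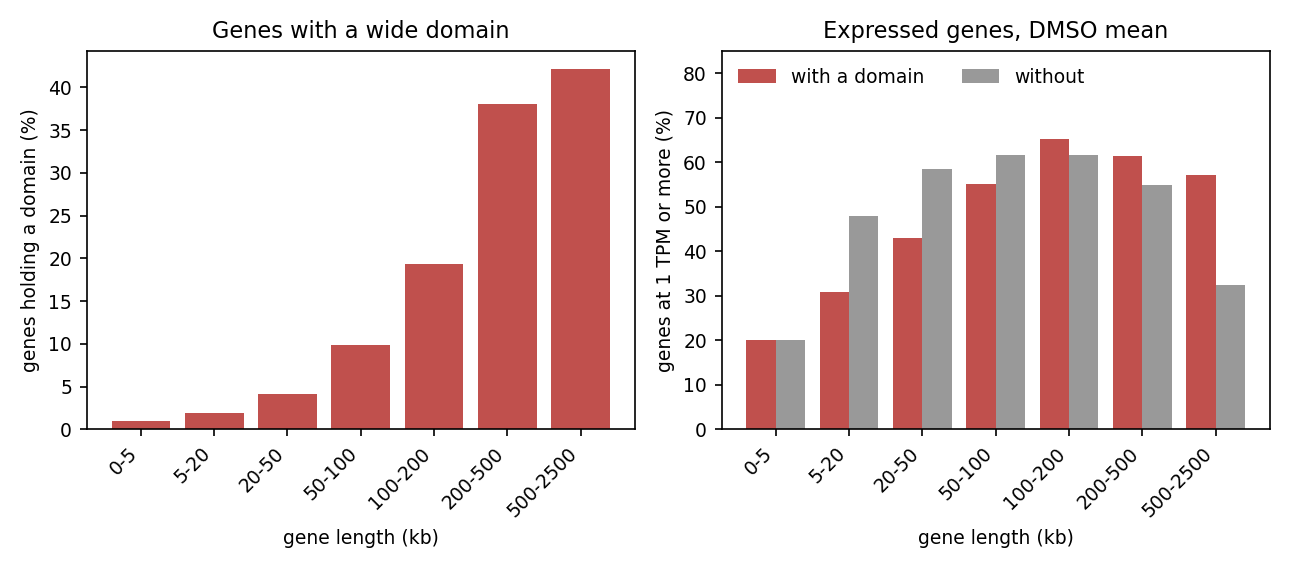
Left, percent of genes in each length class that hold a wide domain. Right, percent of genes at 1 TPM or more in the DMSO mean, for genes with a domain (red) and without (grey). The first share climbs to 42.2% above 500 kb, and in the second the genes with a domain lie below the others from 5 to 100 kb and above them from 100 kb on.

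The protein-coding genes with most domain bases were SLC24A3, a sodium, potassium and calcium exchanger (34 domains, 124 kb), and TSHZ2, a zinc finger homeobox gene (34 domains, 122 kb), both on chromosome 20. SLC24A3 was at 3.45, 2.03 and 3.35 TPM in P3FI-90, against 4.40, 3.81 and 4.2 TPM in DMSO, and TSHZ2 was listed at 0 in all 6 libraries. The other 8 were STARD13, GRM7, ITPR1, ATP8A2, FGGY, SETBP1, AUTS2 and EPHA4. Of these 10 genes, only TSHZ2 and GRM7, a metabotropic glutamate receptor, had means under 1 TPM. EPHA4 had the largest share of its body under domains among them, 39.8% with 18 domains, and stood at 14.4, 16.0 and 9.59 TPM in P3FI-90 against 13.9, 16.0 and 12.6 TPM in DMSO. FGGY, a carbohydrate kinase gene, was the highest of them at 69.0, 64.5 and 62.7 TPM in P3FI-90 against 61.6, 74.1 and 75.2 TPM in DMSO, and the groups overlapped.

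Some highly expressed genes held a domain. The 10 domain genes with the highest TPM in DMSO were GNAS, HNRNPA1, MYL12B, NACA, MYL12A, PXDN, YBX1, HMGB1, CHRNA1 and CNN3, with DMSO means between 727 and 2396 TPM. GNAS, the G protein alpha subunit gene, had 2470.4, 2122 and 2441 TPM in P3FI-90, against 2581, 2248 and 2359.9 TPM in DMSO. Each of the 10 held 1 or 2 domains, covering between 1.31% of HMGB1 and 29.9% of MYL12A. MYL12A and MYL12B are near-identical neighbours, and HNRNPA1, NACA, YBX1 and HMGB1 have many processed copies, so reads may be split among copies and these levels are uncertain.

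Domains over the start sites of expressed genes were few, and some reached only a short way into the gene. The 10 highest by DMSO TPM were HNRNPA1, TPM3, ID3, PHLDB2, CAV3, FCRLA, CBX5, SF3B4, TM9SF4 and HMGCS1, between 58.8 and 1968 TPM. The domain covered 0.134 kb of the TM9SF4 body, 0.156 kb of HMGCS1 and 0.291 kb of SF3B4, against 1.64 kb of TPM3 and 1.86 kb of FCRLA. A single domain on chromosome 12 covered the start sites of both CBX5, which encodes HP1 alpha, and its divergent neighbour HNRNPA1, an RNA-binding protein gene. CAV3, the muscle caveolin gene, held 2 domains over 33.7% of its body (4.36 kb), most of it under the domain away from the start site. The domain over the start site ended at chr3:8775628, a short way past the gene's start at chr3:8775486. CAV3 stood at 256, 151 and 136 TPM in P3FI-90 against 268, 189.6 and 180.5 TPM in DMSO. HMGCS1, a cholesterol synthesis gene whose CpG-rich upstream bases are printed above, was at 62.8, 73.1 and 32.7 TPM in P3FI-90 against 68.4, 66.6 and 41.4 TPM in DMSO, and the groups overlapped for both genes.

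Clustered gene families and ribosomal protein genes held few domains, as did short genes at large. None of 283 olfactory receptor genes, 57 clustered protocadherins or 43 HOX cluster genes held one, and 2 of 266 zinc finger genes of chromosome 19 did, ZNF805 and ZNF536. Only 1 of 158 keratin genes (KRT86), 1 of 30 beta-defensins (DEFB121) and 1 of 24 type 2 taste receptors (TAS2R39, covered along its whole length) held a domain. None of 84 ribosomal protein genes did. Their median lengths lay between 0.948 and 19.7 kb, apart from the protocadherins at 99.8 kb. Among all genes, 0.933% up to 5 kb, 1.86% from 5 to 20 kb and 9.82% from 50 to 100 kb held a domain. The shares were 0.752% of zinc finger genes, 0.633% of keratin genes, 3.33% of beta-defensins and 4.17% of taste receptors, the last 2 resting on 1 gene each. The lists were not all silent, since 203 of the 266 zinc finger genes were at 1 TPM or more in DMSO.

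Synaptic and neuronal adhesion genes were the list with the largest share, 25 of 47 (53.2%), and the longest genes, with a median of 1103 kb. Among all genes above 500 kb, 42.2% held a domain, and what part length has in the share of this list was not tested. The 4 with most domain bases were RBFOX1 (16 domains, 49.9 kb), a splicing regulator, the phosphatase gene PTPRT (17 domains, 46.8 kb), MACROD2 (16 domains, 43.7 kb) and the adhesion gene CADM2 (16 domains, 39.8 kb). CADM2 had 34.0, 29.2 and 22.6 TPM in P3FI-90, against 54.0, 42.2 and 25.2 TPM in DMSO. MACROD2 stood at 0.13, 0.15 and 0.03 TPM in P3FI-90 and at 0.04, 0.05 and 0 TPM in DMSO. Of the 25 genes, 11 were at 1 TPM or more in DMSO.

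Some genes of the tumour's own programme held domains. Of 28 PAX3-FOXO1 target genes, 8 (28.6%) did, against 6.44% of all genes. Their lengths are mixed, with a list median of 32.4 kb but 729 kb for ALK and 990 kb for ASTN2. Among all genes, 4.08% from 20 to 50 kb and 42.2% above 500 kb held a domain. What part length has in the share of this list was not tested. The 4 with most domain bases were EPHA4, the receptor kinase gene ALK (10 domains, 30.9 kb), ASTN2 (7 domains, 22.7 kb) and the receptor kinase gene MET (5 domains, 20.6 kb). MET stood at 82.6, 62.4 and 56.4 TPM in P3FI-90 against 84.6, 69.8 and 62.2 TPM in DMSO. The others of this list were CXCR4, listed at 0 in all 6 libraries, KCNN3, NELL1 and ZNF385B. PAX3 itself held 5 domains over 15.3% of its body. Among 27 myogenic and contractile genes, with a median length of 18.0 kb, 4 (14.8%) held domains. They were the sarcomere genes TTN (4 domains, gene length 281 kb) and NEB (1 domain, 249 kb), the calcium store gene CASQ2 (2) and the acetylcholine receptor gene CHRNA1 (1). Of 21 genes for H3K9 methyltransferases, demethylases and HP1, 2 (9.52%) did, KDM4C, an H3K9 demethylase gene (2 domains), and CBX5. The median length of that list was 51.6 kb, and 9.82% of all genes from 50 to 100 kb held a domain.

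The last comparison asked whether domain genes changed in RNA after 24 h of P3FI-90. Of 12188 genes tested, at a mean of 1 TPM or more, 932 held a domain, and none of these 932 passed an adjusted p of 0.05 in limma on log2(TPM + 1), against 2 of all 12188 genes (0.0164%). At an unadjusted p under 0.05, 52 of the 932 (5.58%) stood against 687 of all (5.64%), and the lowest adjusted p among domain genes was 0.284. The median log2 fold change was −0.04 in domain genes and −0.08 over all genes tested. Libraries with the same replicate number varied together, which the fit without a block leaves out of account. With the replicate as a block, 95 of the 932 domain genes passed (10.2%) against 1071 of 12188 genes (8.79%) by limma. Of the 95, 46 were higher in P3FI-90 (4.94% against 2.81% of all genes) and 49 lower (5.26% against 5.98% of all genes). The titles number only replicates 3 and 4 in both treatments, and with these 2 pairs alone 216 of 926 domain genes passed (23.3% against 22.5% of all genes), 98 higher in P3FI-90 (against 8.13% of all genes) and 118 lower (against 14.4% of all genes).

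**Figure D5:**
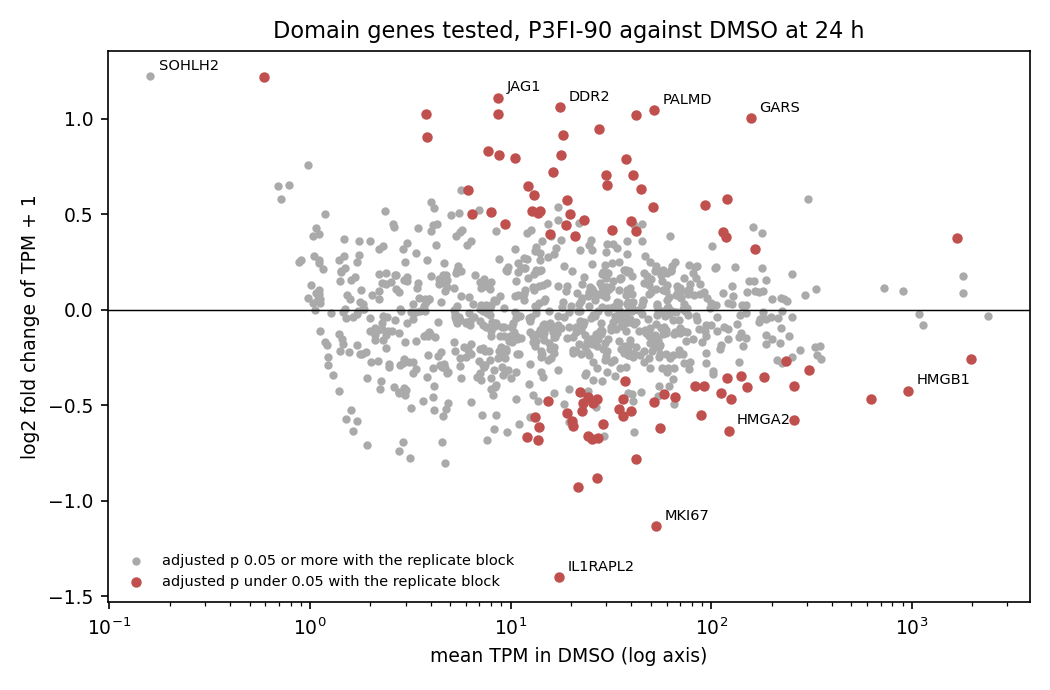
Log2 fold change of TPM + 1, P3FI-90 over DMSO at 24 h, against the mean TPM in DMSO (log axis) for the 932 domain genes tested. Red points are the 95 genes with an adjusted p under 0.05 in limma with the replicate block, 46 above and 49 below 0, and none passed without the block.

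Among domain genes the largest positive log2 fold changes were those of SOHLH2, VLDLR-AS1, JAG1, DDR2 and PALMD. JAG1, a Notch ligand gene, had 21.1, 21.8 and 15.8 TPM in P3FI-90 against 11.6, 8.02 and 6.40 TPM in DMSO, with no overlap between the groups (log2 fold change 1.11 ± 0.27 (SE), limma adjusted p = 0.46, and 0.0166 with the block). Only 0.197 kb of the JAG1 body lay under its domain. DDR2, a collagen receptor gene, had 36.7, 33.8 and 42.9 TPM in P3FI-90 against 17.6, 20.2 and 15.2 TPM in DMSO, and its limma adjusted p was 0.305 without and 0.0188 with the block. PALMD had 99.3, 111.9 and 108.3 TPM in P3FI-90, against 64.5, 51.2 and 40.3 TPM in DMSO, and the non-coding VLDLR-AS1 had 2.62, 2.75 and 2.58 TPM against 0.47, 1.00 and 0.31 TPM. SOHLH2 rested on 1 library, with 1.42, 7.04 and 0 TPM in P3FI-90 against 0.34, 0 and 0.14 TPM in DMSO, and did not pass with the block.

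The largest negative log2 fold changes were those of IL1RAPL2, MKI67, FAM212B, LRRN1 and ST3GAL4-AS1. IL1RAPL2, an interleukin receptor family gene on X, had 6.25, 4.58 and 7.27 TPM in P3FI-90 against 14.1, 18.3 and 20.2 TPM in DMSO, without overlap (log2 fold change −1.40 ± 0.25 (SE), limma adjusted p = 0.305, and 0.0166 with the block). MKI67, the proliferation marker Ki-67, had 5.95, 56.0 and 10.6 TPM in P3FI-90 against 16.9, 122 and 21.0 TPM in DMSO, so that replicate 3 was far above the others in both treatments and each P3FI-90 library lay below its DMSO counterpart. Its limma adjusted p was 0.967 without and 0.0144 with the block. LRRN1, in a block of domains on chromosome 3, had 20.1, 11.7 and 12.2 TPM in P3FI-90 against 27.4, 28.3 and 25.6 TPM in DMSO.

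In the blocks of domains themselves, 65 domain genes were tested, with a median log2 fold change of −0.10 against −0.08 over all genes tested. None passed limma without the replicate block. With it 9 passed (13.8% against 8.79% of all genes), 2 higher in P3FI-90 (3.08% against 2.81%) and 7 lower (10.8% against 5.98%). The HMGA2 block of chromosome 12 held 1 gene of each direction. HMGA2, a chromatin architecture gene with 14 domains over 34.2% of its body, had 102, 86.8 and 48.1 TPM in P3FI-90 against 149, 139.8 and 77.6 TPM in DMSO (log2 fold change −0.63 ± 0.33 (SE), limma adjusted p = 0.904, and 0.0166 with the block). RPSAP52, a transcribed pseudogene of a ribosomal protein gene that overlaps the HMGA2 start on the other strand and held 6 domains, had 84.1, 100 and 77.7 TPM in P3FI-90 against 44.2, 45.8 and 37.4 TPM in DMSO (log2 fold change 1.02 ± 0.17 (SE), limma adjusted p = 0.284, and 0.0105 with the block). HMGA2 groups overlapped and RPSAP52 groups did not. These genes were singled out after their values were seen, and the strand setting of the counting is not given in the sources used here, so reads in their overlap may be shared, as may reads of RPSAP52 and its parent gene. PAX3 had 12.2, 14.4 and 12.3 TPM in P3FI-90 against 23.5, 20.3 and 17.4 TPM in DMSO, without overlap (log2 fold change −0.61 ± 0.21 (SE), limma adjusted p = 0.795, and 0.0351 with the block). Reads of the fusion transcript may be counted under PAX3, its 5′ partner, and these values do not separate the 2.

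Of the 94 genes with a domain over the start site, 32 were tested, none passed limma without the block and 10 did with it (31.3%, against 8.79% of all genes), 4 higher in P3FI-90 (against 2.81% of all genes) and 6 lower (against 5.98%). Those higher, singled out like those lower after their values were seen, were EIF2AK3, EMP1, IFRD1 and IL20RB. EIF2AK3, the stress kinase PERK, had 43.9, 63.7 and 41.9 TPM in P3FI-90 against 30.1, 34.5 and 25 TPM in DMSO, without overlap. Only 0.044 kb of the EIF2AK3 body lay under its domain. Those lower were CBX5, CDC7, HNRNPA1, ID3, SF3B4 and ZNF830, and the domain over the CDC7 start covered 0.145 kb of its body. CBX5 had 134.6, 78.3 and 67.0 TPM in P3FI-90 against 160.0, 122 and 96.5 TPM in DMSO, and the groups overlapped (limma adjusted p = 0.943, and 0.0361 with the block). ID3, an inhibitor of the myogenic factors, had 131, 226 and 239.96 TPM in P3FI-90 against 204, 267 and 302 TPM in DMSO.

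By list, none of the members with a domain passed without the block. With it, CBX5, KCNN3 and PAX3 were lower in P3FI-90 and none was higher. KCNN3, a potassium channel gene also singled out in this way, had 19.5, 16.8 and 9.49 TPM in P3FI-90 against 24.4, 29.8 and 18.5 TPM in DMSO. Over all members, with or without a domain, the counts with the block stand beside 2.81% higher and 5.98% lower among all genes. Of 25 PAX3-FOXO1 target genes tested, 9 (36.0%) were lower in P3FI-90 and none higher, and of 21 genes for H3K9 enzymes and HP1, 5 (23.8%) were lower and none higher. Of the 6 cell markers, 3 were lower and none higher. In other lists few genes passed. Among ribosomal protein genes 2 of 81 were higher (2.47%) and none lower, and 3 of 198 zinc finger genes were higher (1.52%) and 2 lower (1.01%). These shares lay under those of all genes. Of 18 HOX genes 1 was higher (5.56%) and none lower, and of 21 myogenic genes 1 was higher (4.76%) and 2 lower (9.52%), shares that rest on 1 or 2 genes. No member of any list passed without the block. The lists were chosen with earlier results of these data known, so their direction is not independent evidence. None of the 11 synaptic and adhesion genes tested with a domain passed in either fit.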

How the data were processed

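Peak lists and gene tables were used as the authors deposited them. Per the study's methods, ChIP reads were aligned to hg19 with BWA and peaks were called with MACS2, in broad mode for H3K9me2 and H3K27me3 and in narrow mode otherwise, with ENCODE blacklisted regions removed. The HP1 lists are broad lists, as the study's sequencing details also give them. Drosophila chromatin was added as a spike-in, but peak lists carry no spike-in scaling. The study states 2 p cutoffs, a general one and a laxer one for broad lists. The replicate 1 H3K9me2 lists run below both, and those of replicates 3 and 5 only below the general one. The deposited broad peak lists give the −log10 p of each peak and a fold enrichment ratio, both averaged over the peak. RNA was aligned with STAR and summarised by RSEM, and the authors deposited TPM per gene, which keeps no read depth. The lists were called per library, and no peak ran past a GRCh37 chromosome end. Broad lists were read at a −log10 p of at least 3 and overlaps of 1 bp or more were counted.

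Genes were located by the tables' own coordinates. Left out were 106 genes off chromosomes 1 to 22 and X, 122 spanning over 2.5 Mb and 159 spanning far beyond their GENCODE gene, symbols that stand for several loci. Of 26656 genes kept, 22380 (84.0%) matched GENCODE by symbol. Changes in RNA were fitted with limma 3.58.1 (R 4.3.3), taking log2(TPM + 1) of genes whose 6 libraries averaged 1 TPM or more, Benjamini-Hochberg adjusted over all 12188 and tested on simulated data. Fold changes on this scale understate low genes. Shares of bases were compared with exact permutation tests in Python 3.11.15. The study calls the replicates biological, and the titles of DMSO RNA replicates 3 and 4 carry different dates. The labels name no cultures.

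Deviations from the group means correlated between same-numbered RNA libraries with r = 0.573, 0.575 and 0.644 in replicates 1, 3 and 4 (12188 genes), and H3K4me3 cover of the domains with r = 0.578, 0.921 and 0.783. The numbers were therefore taken as pairs in the fits with a block and in the sign-flip tests within replicate numbers. The main limma fit and the permutation tests of P3FI-90 against DMSO used no pairing. Number 1 comes from the order of the samples, not from titles. Named domains were the 5 widest and the 5 with the highest −log10 p. Named genes were the 10 protein-coding genes with most domain bases, the 10 with the highest TPM, the 10 highest with a domain over the start site, the 5 largest log2 fold changes in each direction, and the members of 13 gene lists that hold a domain (the 4 with most domain bases where over 6 did), apart from genes said to be singled out and those that complete a count. The domains and lists were chosen with earlier results of these data known. Alternatives changed width, −log10 p, overlap, pseudocount, filter, block and libraries.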

Additional observations from a re-analysis of the deposited data

How the results depend on the processing

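The larger coverage of wide domains than of narrower peaks kept its direction under every alternative run, and over the fits leaving out 1 library the mean difference ran between 3.27 and 9.10 percentage points. The difference between P3FI-90 and DMSO in domain cover stayed negative when width, −log10 p, overlap, chromosomes or assembly gaps were changed, but turned to 0.371 when divided by the genome share, and ran between −3.97 (without replicate 5) and 0.227 (without replicate 3). With the replicate block it was −1.87 (exact sign-flip p = 1.0). The cover of domains deviated together in same-numbered libraries of replicates 3 and 5 (r = 0.27 over 8095 domains), which with 2 pairs shows a shared number only. The H3K4me3 difference stayed negative, between −1.25 and −0.772 percentage points without 1 replicate, and was −0.947 with the block.

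No domain gene passed limma with a pseudocount of 0.1, without the filter, without any 1 RNA library or under other domain thresholds, whereas 95 passed with the replicate block and 216 with the block on pairs 3 and 4, an alternative chosen after the data were seen. The share of domain genes at 1 TPM or more in DMSO was 33.7% with the start site inside a domain and 65.4% for protein-coding genes. When 50% of a domain had to be covered, the share of domains fell to 13.2% (P3FI-90) and 12.7% (DMSO) for H3K27me3, 6.28% and 3.24% for HP1, 0% and 0.0988% for total polymerase, 0.0618% and 0.296% for serine 5, 0.0494% and 0.754% for serine 2, and 0% for ATAC after both P3FI-63 and DMSO. Read depth was not used here, and the short lists of replicates 3 and 5 limit what can be called again.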

Other observations

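Few domains lay near assembly gaps. Of the 8095 domains, 25 (0.309%) lay within 100 kb of a gap of at least 1 kb in GRCh37, against 0.674% of narrower peaks and 1.77% of sequenced bases. Domain genes were spread unevenly, with 16.2% of the genes of chromosome 20 and 16.1% of those of chromosome 18 holding a domain, against 0.807% on chromosome 19. The most crowded 1 Mb window held 78 domains, at chr2:221000001-222000000.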
